A study of Mus musculus with 36 samples.

Results

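The genes described here are 37 listed ligands, receptors, extracellular regulators, Smads and Id genes of the TGF-beta and BMP pathways, found by their symbols in a table of raw read counts over 26400 gene rows. A row was found for 36 of them. Bmp2 was not analysed here. Bmp6 and Gdf15 had no more than 23 counts over the 3 libraries of any group and were under the filter on low counts, which left 34 members tested. RNA of nuclei and of cytoplasm was sequenced separately from mouse C166 cells, a yolk sac derived endothelial line, and from the line C1.1. In C1.1 a copy of the miR-466c hairpin had been removed from C166 by CRISPR-Cas9 deletion. The paper states that other hairpins of this miRNA remain in the cluster, and reports that its level was strongly reduced. Each of the 12 groups had 3 libraries, for C1.1 and C166, kept in normoxia or exposed to 1% oxygen (hypoxia) for 2 h or 24 h, with nucleus and cytoplasm apart. The C1.1 line is 1 clone, so a property of that clone and the reduction of the miRNA cannot be told apart. The deleted hairpin was not analysed here, and the deletion lies in an intron of Sfmbt2, so the counts of that gene do not check it. Nothing in the labels says that replicates were separate cultures, and p-values then measure the spread between these libraries, which may be technical.

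Ligands of the TGF-beta family bind pairs of type I and type II serine/threonine kinase receptors. TGF-beta and activins signal mainly through Smad2 and Smad3, and BMPs through Smad1 and Smad5, each with the shared partner Smad4. Outside the cell, latent TGF-beta binding proteins (LTBPs) hold TGF-beta in the matrix, and antagonists such as noggin, gremlin and follistatin bind ligands before they reach a receptor. Smad6, Smad7 and SnoN, the product of Skil, restrain the pathway, and the Id genes are classic early targets of BMP. In endothelium and the vessel wall the pathway is known for its roles in vessel growth and in the exchange of endothelial for mesenchymal traits.

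Total counts ran between 15314724 and 24940907 per library in the nucleus and between 20745543 and 28667821 in the cytoplasm. C166 normoxic cytoplasm replicate 1 stood apart, with 11903 genes detected against 16393 and 16712 in the other replicates of its group, and values without it are given beside results that it moved. The labelled cell type was poorly visible in its defining markers. In normoxic cytoplasm the summed level of the 9 endothelial markers with a row, of 15 listed, ran between 3.37 and 3.98 CPM (counts scaled to the effective size of the library) in C1.1 and between 2.43 and 3.19 CPM in C166, where Cdh5, Kdr, Tie1 and Sox18 had no count in any of the 3 libraries. The 11 smooth muscle and mesenchymal genes summed to between 1556 and 1789 CPM in C1.1 and to between 5132 and 6608 CPM in C166, with no overlap, and the part of this in the results below was not tested. The hypoxia treatment was visible in both lines, since all 7 listed hypoxia-inducible genes passed the test upward at 24 h in each line and fraction.

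Levels of different genes are compared per kilobase of exon. Grem1, which encodes the BMP antagonist gremlin, led in normoxic cytoplasm with 348 CPM per kilobase in C1.1 and 504 in C166. Id1 came next with 105 in C1.1 and 120 in C166. Among the receptors the BMP type I receptor Bmpr1a led, at 48.3 CPM per kilobase in C1.1 and 36.6 in C166, followed by Tgfbr1 at 22.2 in C1.1 and 27 in C166. The ligand of highest level was Bmp4, at 27.6 CPM per kilobase in C1.1 and 29.7 in C166. TGF-beta ligands were lower, with Tgfb3 at 8.06 and Tgfb1 at 3.09 in C1.1, and at 4.52 and 2.58 in C166. Tgfb2 was at 0.32 in C1.1 and 0.839 in C166.

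The first comparison asked how the members differed between C1.1 and C166 in normoxia. Of 34 tested members, 16 passed the test in cytoplasm, 7 higher and 9 lower in C1.1, where 35.5% of all genes passed (18.2% higher and 17.3% lower). In the nucleus 24 passed, 9 higher and 15 lower, where 40% of all genes passed (18.8% higher and 21.2% lower). The share of members (70.6%) was above that of all genes there and nearer to it in cytoplasm (47.1%). Nog and Inhbb had 0 counts in normoxic C1.1 and were tested only through reads in C166. They could only be called lower, and both are among the lower calls of each fraction. With upper-quartile factors the nucleus gave 10 higher and 12 lower, and the median of all genes moved by 0.10. The median log2 difference of the members was -0.12 in cytoplasm and -0.20 in the nucleus, beside 0.06 and 0.02 over all genes. Over the 32 members other than Nog and Inhbb it was -0.07 in cytoplasm and -0.16 in the nucleus. Calls in the same direction in both fractions numbered 15, of which 6 were higher (Acvr2b, Bmp1, Bmpr1a, Smad1, Smad3 and Tgfb3) and 9 lower (Fst, Fstl1, Grem1, Id2, Inhba, Inhbb, Ltbp2, Nog and Tgfb2), and no member was called in opposite directions. In such bulk libraries fewer cells that carry an RNA and less RNA per cell cannot be told apart.

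**Figure D1:**
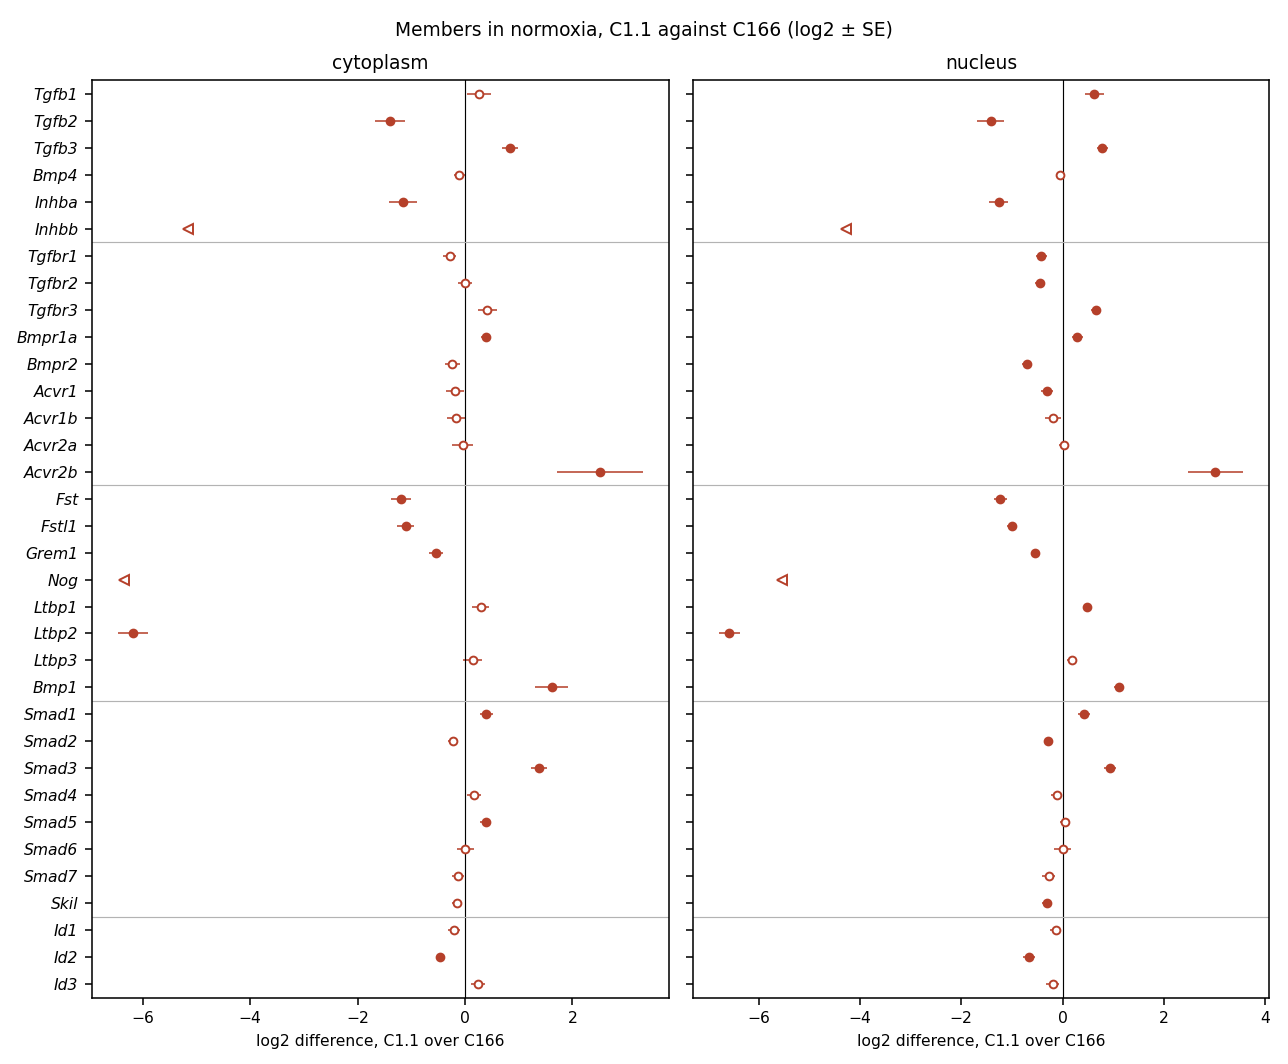
The log2 difference of C1.1 over C166 in normoxia (x axis) is plotted for the 34 tested members (y axis, by role), cytoplasm at left and nucleus at right, as estimate ± SE from 3 libraries per group. Filled points passed at adjusted p under 0.05, open circles did not, and open triangles mark the bound for Inhbb and Nog, which had 0 counts in C1.1, and Ltbp2 lies far to the left, at -6.18 in cytoplasm and -6.58 in the nucleus.

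The extracellular regulators held the widest line differences. Ltbp2, a matrix protein of the LTBP family, had 0.673, 1.21 and 0.568 CPM in C1.1 cytoplasm, against 70.5, 51.5 and 54.6 CPM in C166 cytoplasm. In the nucleus it had 3.46, 2.54 and 4.48 CPM in C1.1, against 309, 360 and 346 CPM in C166. All C1.1 libraries lay far under all C166 libraries, with a log2 difference of -6.18 ± 0.28 (SE, edgeR adjusted p = 2.49e-12) in cytoplasm and -6.58 ± 0.21 (edgeR adjusted p = 1.35e-18) in the nucleus. The row of D030025P21Rik overlaps Ltbp2 on the other strand, and the use of strand in counting is not stated. Nog, which encodes the BMP antagonist noggin, had 0 counts in the 3 libraries of C1.1 normoxic cytoplasm, against 3.37, 2.92 and 2.31 CPM in C166. Taking 3 counts over a group as the floor, Nog was at least 81-fold lower in C1.1 cytoplasm and at least 46.6-fold lower in the nucleus, where C166 had 132 counts. Over all 18 libraries of C1.1 it had a single read, in the nucleus at 24 h, so no hypoxic change of Nog could be seen in this line.

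The antagonists Fst, Fstl1 and Grem1 were lower in C1.1 in both fractions. Fst encodes follistatin, which binds activins, and had 23.7, 21.2 and 20.2 CPM in C1.1 cytoplasm, against 48.5, 52.6 and 47.3 CPM in C166 cytoplasm. Its groups did not overlap, and the log2 difference was -1.19 ± 0.18 in cytoplasm (edgeR adjusted p = 3.56e-05) and -1.23 ± 0.13 in the nucleus (edgeR adjusted p = 4e-08). Fstl1, a secreted relative of follistatin, had 132, 128 and 111 CPM in C1.1 cytoplasm, against 316, 255 and 228 CPM in C166 cytoplasm, again without overlap. Its log2 difference was -1.10 ± 0.16 in cytoplasm and -1.0 ± 0.09 in the nucleus. For Grem1 the differences were smaller, at -0.54 ± 0.13 and -0.55 ± 0.08. Bmp1 went the other way. It encodes a protease that trims procollagen and frees ligands from their antagonists, and it had 27.1, 22.1 and 21.5 CPM in C1.1 cytoplasm, against 2.35, 9.71 and 11 CPM in C166 cytoplasm. The lowest C166 value came from the replicate that stood apart, and the log2 difference of 1.62 ± 0.31 became 1.19 without it, both past the threshold. In the nucleus Bmp1 had 113, 100 and 126 CPM in C1.1, against 47.8, 55.0 and 53.8 CPM in C166, a log2 difference of 1.11 ± 0.10. Ltbp1 was higher in the nucleus of C1.1, by 0.49 ± 0.07, and Ltbp3 passed in neither fraction.

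Ligands differed in both directions. Tgfb2 had 1.49, 2.24 and 1.84 CPM in C1.1 cytoplasm, against 3.84, 5.21 and 5.53 CPM in C166 cytoplasm. Tgfb3, in contrast, had 25.8, 27.3 and 28.7 CPM in C1.1, against 17.5, 15.2 and 13.2 CPM in C166. For neither ligand did the lines overlap, and the log2 differences were -1.39 ± 0.28 for Tgfb2 (edgeR adjusted p = 0.000544) and 0.83 ± 0.15 for Tgfb3 (edgeR adjusted p = 0.000168). The nuclear values were -1.41 ± 0.27 for Tgfb2 and 0.78 ± 0.11 for Tgfb3. Tgfb3 overlaps Ttll5 on the other strand, so reads of that gene may be counted with it. Inhba, whose product forms activin A, had 10.5, 8.11 and 9.82 CPM in C1.1 cytoplasm, against 13.3, 24.3 and 25.7 CPM in C166, and the value of 13.3 was that of the replicate that stood apart. The difference was -1.16 ± 0.26 with that library, -1.40 without it, and -1.26 ± 0.19 in the nucleus. Inhbb, the gene of the other activin subunit measured, had 0 counts in normoxic C1.1 in both fractions and was at least 35.7-fold lower than in C166 in cytoplasm, where C166 had 93 counts, and at least 19.4-fold lower in the nucleus. Of the 93 counts, 58 were in the replicate that stood apart, and without it the bound for cytoplasm was 19.7-fold. Tgfb1 was 0.62 ± 0.19 higher in the nucleus of C1.1 and passed no test in cytoplasm. Bmp4 did not pass in either fraction, with log2 differences of -0.10 in cytoplasm and -0.05 in the nucleus.

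Of the 9 receptors, 2 were called in cytoplasm and 7 in the nucleus, beside 35.5% and 40% of all genes. Without the C166 replicate that stood apart Tgfbr3, at 0.63, and Bmpr2, at -0.40, were called in cytoplasm too, and whether the line differences themselves differ between fractions was not tested. Acvr2b, an activin type II receptor, was scarce in both lines, with 1.24, 1.40 and 1.30 CPM in C1.1 cytoplasm, against 0, 0.375 and 0.300 CPM in C166 cytoplasm. These rest on 111 counts in C1.1 and 17 in C166, and the log2 difference was 2.51 ± 0.80 in cytoplasm and 3.02 ± 0.55 in the nucleus, the cytoplasmic call being lost with only the libraries compared. Without the replicate that stood apart, which had 0 counts, the cytoplasmic difference was 1.94. Bmpr1a was higher in C1.1 cytoplasm, with 300, 310 and 309 CPM against 204, 254 and 240 CPM in C166, a log2 difference of 0.40 ± 0.09. Its nuclear difference of 0.29 ± 0.11 lost its call without C166 normoxia replicate 3 or C1.1 normoxia replicate 2. In the nucleus the co-receptor Tgfbr3, known as betaglycan, was higher in C1.1 by 0.66 ± 0.10. The type II receptors Bmpr2 and Tgfbr2 were lower there, by -0.70 ± 0.10 and -0.45 ± 0.10 on the log2 scale. In cytoplasm their log2 differences were -0.24 for Bmpr2 and 0.00 for Tgfbr2, and neither passed. Without the C166 replicate that stood apart, Bmpr2 and Tgfbr3 passed in cytoplasm too, which brought the number called to 18 with all 16 kept.

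Smad3, which carries TGF-beta and activin signals, was the Smad with the largest line difference, at 134, 139 and 150 CPM in C1.1 cytoplasm against 36.8, 58.0 and 67.5 CPM in C166 cytoplasm. In the nucleus it had 118, 120 and 122 CPM in C1.1, against 66.1, 63.7 and 58.5 CPM in C166. The groups did not overlap in either fraction, and the log2 difference was 1.38 ± 0.16 in cytoplasm (edgeR adjusted p = 1e-06), 1.17 without the replicate that stood apart, and 0.93 ± 0.11 in the nucleus (edgeR adjusted p = 2.41e-07). Its partner in TGF-beta signalling, Smad2, was lower in the C1.1 nucleus, at -0.28 ± 0.09, a call that 6 of 12 alternatives ended, and did not pass in cytoplasm. The BMP-type Smad1 was higher in both fractions, by 0.40 ± 0.12 in cytoplasm and 0.43 ± 0.12 in the nucleus, and the cytoplasmic call was lost without C166 normoxia replicate 3 or C1.1 normoxia replicate 2. Smad4, Smad6 and Smad7 passed in neither fraction. Among the Id genes, Id2 had 114, 115 and 109 CPM in C1.1 cytoplasm, against 156, 158 and 151 CPM in C166 cytoplasm, with no overlap and a log2 difference of -0.46 ± 0.08. Id1 and Id3 passed in neither fraction. Smad5, a carrier of BMP signals, was called higher in C1.1 cytoplasm at 0.39, and at 0.23 without the C166 replicate that stood apart.

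Bmp4, Bmpr1a and Bmp1 lie on chromosome 14, whose genes as a whole were higher in C1.1. Over the 459 genes of chromosome 14 tested in cytoplasm the median log2 line difference was 0.67, and 56.2% of them were called higher, beside 18.2% of all genes. Over its 471 genes in the nucleus the median was 0.58. Chromosome 9, which holds Smad3, Smad6, Acvr2b and Tgfbr2, had a median of 0.35 over 800 genes in cytoplasm and 0.26 over 850 in the nucleus, with 33.8% and 34.8% of them called higher. On chromosome 12, which holds Ltbp2, Id2 and Tgfb3, the medians were -0.21 over 468 genes and -0.26 over 488. Of these genes 133 and 175 were called lower, and 9.4% and 10% higher. Chromosome 3, which holds Skil, had medians of -0.26 in cytoplasm and -0.29 in the nucleus. Chromosome 8, which holds Smad1, had medians of -0.25 and -0.31. Whether the line differences of the members are separate from those of their chromosomes was not tested.

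Of 18 tested genes known to answer to TGF-beta, a list that shares Ltbp2, Skil and Smad7 with the members, 10 were lower and 1 higher in C1.1 cytoplasm, and 11 lower and 1 higher in the C1.1 nucleus. Of all genes, 17.3% were lower in cytoplasm and 21.2% in the nucleus. The TGF-beta target list also shares Tagln and Col1a1 with the smooth muscle and mesenchymal genes, so these enter both counts, here and at 24 h. The connective tissue growth factor gene Ctgf averaged 31.8 ± 7.43 CPM in C1.1 cytoplasm and 116 ± 24.5 CPM in C166 cytoplasm (SD, n = 3 each). Tagln, a smooth muscle actin-binding protein, averaged 143 ± 7.87 CPM in C1.1 cytoplasm and 540 ± 51.2 CPM in C166 cytoplasm. The immediate early gene Junb was the target called higher in cytoplasm, at 0.90 ± 0.15. Of the 12 BMP target genes tested in cytoplasm, a list that shares Id1, Id2, Id3, Smad6 and Smad7 with the members, 2 were higher and 4 lower. Among other genes of the pathway, 6 of 31 tested were higher and 12 lower in cytoplasm. They include Thbs1, whose product can activate latent TGF-beta, with a log2 difference of -2.43 ± 0.17, and the BMP-type Smad9, with -1.03 ± 0.15. Gdf10, a ligand of the family, averaged 12.3 ± 2.00 CPM in C1.1 cytoplasm and 0.0143 ± 0.0248 CPM in C166 cytoplasm. Of the smooth muscle and mesenchymal genes given above 9 were tested, of which 7 were lower and Dcn higher (0.98) in C1.1 cytoplasm, and 7 were lower and Dcn (1.14) and Pdgfra (0.35) higher in the C1.1 nucleus.

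The next comparisons asked how the members changed in hypoxia in each line. After 24 h, 13 of 34 members passed in C1.1 cytoplasm, 6 higher and 7 lower (36.2% of all genes passed, 18% higher and 18.1% lower), and 13 in C166 cytoplasm, 2 higher and 11 lower (35.8% of all genes, 18.2% higher and 17.5% lower). In the nucleus 18 passed in C1.1, 11 higher and 7 lower (42.8% of all genes, 22.3% higher and 20.5% lower), and 15 in C166, 7 higher and 8 lower (37.6% of all genes, 19.2% higher and 18.4% lower). These shares of members, 38.2% in either cytoplasm, 52.9% in the C1.1 nucleus and 44.1% in the C166 nucleus, stand beside these shares of all genes, and no more than that is read from them. The 2 h and 24 h libraries of a line are set against the same normoxic libraries, which also enter the comparison of the lines. In cytoplasm, Bmp4 and Tgfb2 rose in both lines and Fst, Id1, Id2, Ltbp1, Smad2, Smad7 and Tgfbr1 fell in both. In the nucleus, Acvr1b, Bmp4, Bmpr1a, Tgfb2, Tgfb3 and Tgfbr3 rose in both lines and Fst, Id1, Ltbp1, Smad2 and Smad7 fell in both. No member was called in opposite directions in the 2 lines in either fraction. With upper-quartile scaling the C166 nucleus gave 11 higher and 7 lower. With only the libraries compared, 7 passed in C166 cytoplasm, and the calls of Acvr2a, Bmp4, Grem1, Smad2, Smad7 and Tgfbr1 were lost. In the C166 nucleus the call of Tgfb3 was lost without normoxia replicate 1 or 2 or 24 h replicate 3, and that of Acvr1b without normoxia replicate 2 or 3 or 24 h replicate 3.

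**Figure D2:**
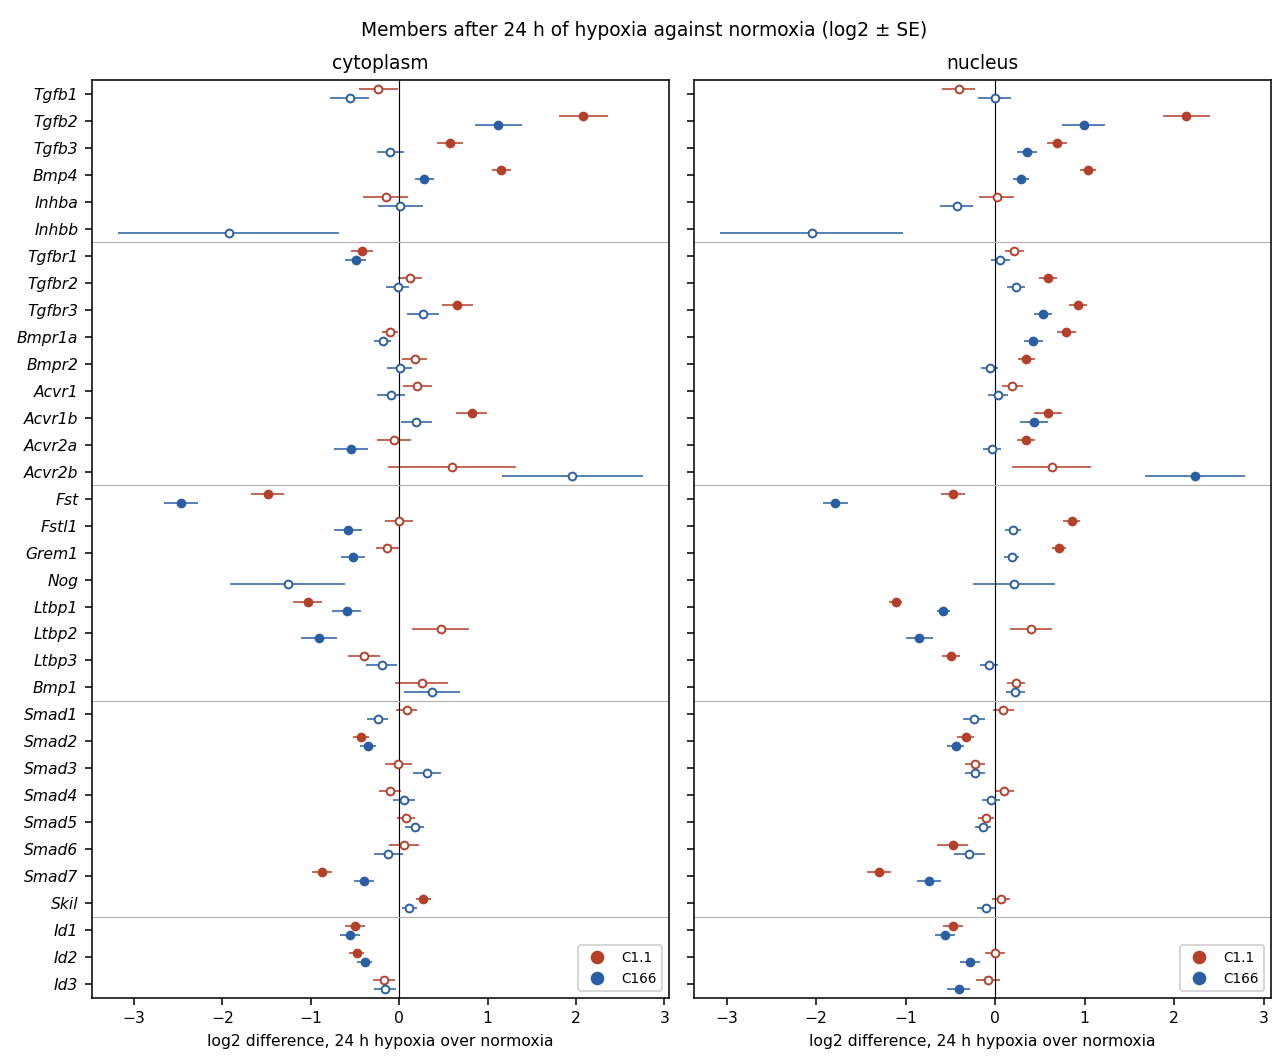
The log2 difference of 24 h of hypoxia over normoxia (x axis) is plotted as estimate ± SE for the tested members (y axis, by role), with C1.1 above C166 in each row, cytoplasm at left and nucleus at right, from 3 libraries per group. Filled points passed at adjusted p under 0.05 and open ones did not, Inhbb and Nog are left out for C1.1 for want of counts, and Tgfb2 in C1.1 lies farthest to the right in each panel apart from Acvr2b in the C166 nucleus, at 2.23.

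Tgfb2 was the ligand with the largest rise. In C1.1 cytoplasm it had 1.49, 2.24 and 1.84 CPM in normoxia, 3.75, 3.17 and 3.54 CPM at 2 h, and 9.50, 7.25 and 6.81 CPM at 24 h. In C166 cytoplasm it had 3.84, 5.21 and 5.53 CPM in normoxia, 7.28, 7.11 and 4.91 CPM at 2 h, and 10.4, 12.2 and 9.12 CPM at 24 h. At 24 h all libraries were above all normoxic libraries of their line, and the levels of the lines, which did not overlap in normoxia, overlapped. The 24 h change was 2.08 ± 0.28 in C1.1 (edgeR adjusted p = 5.66e-06) and 1.12 ± 0.27 in C166 (edgeR adjusted p = 0.0024), and in the nucleus 2.13 ± 0.26 in C1.1 and 0.99 ± 0.24 in C166. The lines' responses differed by 0.96 in cytoplasm (edgeR adjusted p = 0.206) and by 1.14 in the nucleus (edgeR adjusted p = 0.0611), neither past the threshold.

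Bmp4 rose more in C1.1 than in C166. It had 143, 146 and 125 CPM in C1.1 cytoplasm at 24 h, against 63.3, 64.6 and 58.5 CPM in normoxia. In C166 cytoplasm it had 87.7, 79.8 and 76.3 CPM at 24 h, against 71.7, 66.3 and 62.1 CPM in normoxia. The change was 1.15 ± 0.11 in C1.1 (edgeR adjusted p = 5.51e-08) and 0.28 ± 0.11 in C166 (edgeR adjusted p = 0.0432), a call that was lost without C166 normoxia replicate 2 or 3, without C166 24 h replicate 1 or 2, with no filter and with only the libraries compared, up to an edgeR adjusted p of 0.158. In the nucleus the changes were 1.04 ± 0.09 in C1.1 and 0.29 ± 0.09 in C166, the C166 call being lost without normoxia replicate 1 or 24 h replicate 2. Tested directly, the response of Bmp4 was larger in C1.1 by 0.87 ± 0.15 in cytoplasm (edgeR adjusted p = 0.00303) and by 0.75 ± 0.13 in the nucleus (edgeR adjusted p = 0.000519). Rows of 2 other genes, Gm15217 and Gm15222, overlap Bmp4 on the other strand. Tgfb3 rose by 0.58 ± 0.14 in C1.1 cytoplasm and was -0.10 in C166 cytoplasm, where it did not pass. Inhba passed in no line or fraction at 24 h.

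The promoters of the ligands that rose in cytoplasm in both lines are shown because hypoxia-inducible factors bind a core of ACGTG or GCGTG, printed in capitals where it occurs on either strand. Each runs over 250 bases before and 50 bases after the annotated start (RefSeq, build GRCm38.p6, minus strand, 5′ to 3′). In Tgfb2 (chr1:186705940-186706239) the capitals begin 51 bases before the start, and in Bmp4 (chr14:46390620-46390919) 188 bases before it.
Tgfb2: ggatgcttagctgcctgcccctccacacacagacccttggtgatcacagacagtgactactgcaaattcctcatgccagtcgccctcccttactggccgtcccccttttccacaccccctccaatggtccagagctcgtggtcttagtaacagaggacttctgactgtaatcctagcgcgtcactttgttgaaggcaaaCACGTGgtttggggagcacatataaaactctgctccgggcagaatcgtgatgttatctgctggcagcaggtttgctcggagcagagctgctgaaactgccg
Bmp4: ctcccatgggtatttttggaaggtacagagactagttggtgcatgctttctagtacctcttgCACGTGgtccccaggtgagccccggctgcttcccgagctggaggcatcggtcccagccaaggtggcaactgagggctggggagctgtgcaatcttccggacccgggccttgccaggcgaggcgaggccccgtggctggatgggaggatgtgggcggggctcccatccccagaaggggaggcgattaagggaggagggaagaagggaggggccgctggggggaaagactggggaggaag
Each promoter holds 1 such stretch, and in both it reads CACGTG, the core on both strands at once and also the E-box bound by other factors. A core on either strand was found in 43.8% of 32851 RefSeq promoters, and CACGTG in 7.15%. Counted per gene, with any promoter of the gene sufficing, the core was found in 46.7% of 27025 genes. By the same count it was found in 20 of the 26 members with a promoter in the table. CACGTG was found in 8.09% of genes and in 5 of those members. These matches describe letters and not bound sites.

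Fst fell at both times and in both fractions and lines. In cytoplasm it had 23.7, 21.2 and 20.2 CPM in normoxia, 12.2, 10.8 and 13.8 CPM at 2 h and 8.49, 5.66 and 9.05 CPM at 24 h in C1.1. In C166 cytoplasm it had 48.5, 52.6 and 47.3 CPM in normoxia, 28.2, 28.8 and 25.7 CPM at 2 h and 9.14, 11.2 and 6.46 CPM at 24 h. At neither time did hypoxic libraries overlap with normoxic ones, and at 24 h the 2 lines overlapped each other. The 24 h change was -1.49 ± 0.19 in C1.1 (edgeR adjusted p = 3.04e-06) and -2.47 ± 0.19 in C166 (edgeR adjusted p = 5.99e-09). In the nucleus it was -0.47 ± 0.14 in C1.1 and -1.79 ± 0.14 in C166, and the lines differed there by 1.31 ± 0.19 (edgeR adjusted p = 8.58e-05). In cytoplasm the difference of the responses was 0.98 (edgeR adjusted p = 0.0551), and it passed at 0.99 when C166 normoxia replicate 1 was left out.

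Of the latent TGF-beta binding proteins, Ltbp1 was called lower in both lines and fractions, Ltbp2 in C166 only and Ltbp3 in the C1.1 nucleus only. Ltbp1 had 289, 295 and 316 CPM in the C1.1 nucleus at 24 h, against 623, 632 and 693 CPM in normoxia. In the C166 nucleus it had 296, 320 and 311 CPM at 24 h, against 449, 462 and 475 CPM in normoxia. The lines, apart in normoxia, overlapped at 24 h, and the fall was -1.11 ± 0.07 in C1.1 and -0.58 ± 0.07 in C166, a difference of -0.53 ± 0.10 (edgeR adjusted p = 0.00233). The cytoplasmic changes were -1.04 ± 0.17 in C1.1 and -0.60 ± 0.16 in C166. Ltbp2 fell in C166 by -0.91 ± 0.21 in cytoplasm and -0.85 ± 0.15 in the nucleus. In C1.1 its level was low throughout, its changes of 0.47 and 0.40 did not pass, and the difference of the responses was 1.25 ± 0.28 in the nucleus (edgeR adjusted p = 0.00868). Ltbp3 fell in the C1.1 nucleus by -0.49 ± 0.10 and passed in no other comparison at 24 h.

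Fstl1 and Grem1 were called at 24 h in the C1.1 nucleus and in C166 cytoplasm. In the C1.1 nucleus Fstl1 had 298, 306 and 301 CPM at 24 h, against 174, 170 and 156 CPM in normoxia. In the C166 nucleus it had 337, 429 and 382 CPM at 24 h, against 309, 343 and 347 CPM in normoxia, and its libraries overlapped. Grem1 had 1385, 1547 and 1672 CPM in the C1.1 nucleus at 24 h, against 1011, 872 and 928 CPM in normoxia. The nuclear changes in C1.1 were 0.86 ± 0.09 for Fstl1 and 0.71 ± 0.08 for Grem1, and they exceeded those of C166 by 0.66 ± 0.13 (edgeR adjusted p = 0.00313) and 0.53 ± 0.11 (edgeR adjusted p = 0.00672). In cytoplasm the same genes changed by 0.00 for Fstl1 and -0.14 for Grem1 in C1.1, where neither passed, and fell by 0.58 for Fstl1 and 0.52 for Grem1 in C166. Whether the fractions differed in response was not tested.

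**Figure D3:**
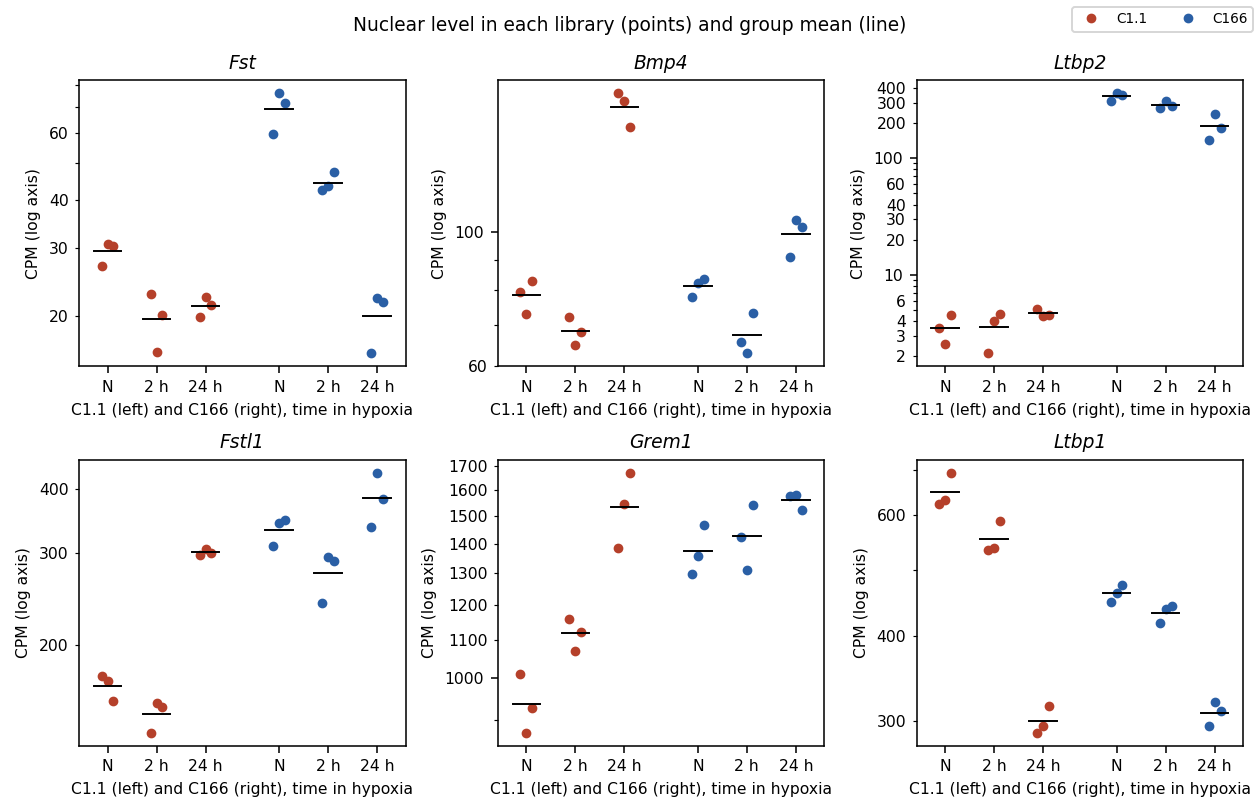
Nuclear CPM on log axes are plotted for each library (points) with the group mean (line) in normoxia (N) and after 2 h and 24 h of hypoxia, C1.1 left of C166, for the 6 members whose 24 h response differed between the lines in the nucleus. Bmp4 reaches 149 to 170 CPM at 24 h in C1.1 and 91.0 to 105 CPM in C166, and Ltbp2 does not exceed 5.05 CPM in C1.1.

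Of the 9 receptors, 6 rose and none fell in the C1.1 nucleus at 24 h, and 4 rose and none fell in the C166 nucleus, where 22.3% and 19.2% of all genes rose. In C1.1 cytoplasm 2 rose and 1 fell, where 18% of all genes rose and 18.1% fell. In C166 cytoplasm none rose and 2 fell, where 18.2% of all genes rose and 17.5% fell. Whether the changes differ between fractions was not tested. Tgfbr3 had 174, 148 and 142 CPM in the C1.1 nucleus at 24 h, against 83.0, 79.2 and 81.4 CPM in normoxia. In the C166 nucleus it had 75.3, 70.0 and 78.1 CPM at 24 h, against 57.5, 48.8 and 47.8 CPM in normoxia. The rises of 0.93 ± 0.10 in C1.1 and 0.53 ± 0.10 in C166 were beyond the spread of the libraries, and their difference of 0.39 did not pass (edgeR adjusted p = 0.107). Bmpr1a, the BMP type I receptor, had 206, 214 and 242 CPM in the C1.1 nucleus at 24 h, against 123, 137 and 122 CPM in normoxia. It rose by 0.80 ± 0.11 in C1.1 and 0.43 ± 0.11 in C166. Tgfbr2 rose in the C1.1 nucleus by 0.59 ± 0.10. The activin type I receptor gene Acvr1b rose by 0.82 ± 0.17 in C1.1 cytoplasm, with 18.6, 21.8 and 22.2 CPM at 24 h against 11.9, 10.8 and 12.6 CPM in normoxia. Tgfbr1, the TGF-beta type I receptor, fell in cytoplasm in both lines, by -0.42 ± 0.12 in C1.1 and -0.49 ± 0.12 in C166. Acvr2a was called lower in C166 cytoplasm at -0.55 ± 0.20, and without C166 normoxia replicate 1 this was -0.34 and no longer passed. Leaving out C166 24 h replicate 2 or 3, or fitting only the libraries compared, ended that call as well. Without C166 normoxia replicate 1, 12 of the 13 calls in C166 cytoplasm were kept. Of the 34 members tested with all libraries, 3 further ones passed, namely Tgfbr3 at 0.47, Bmpr1a at -0.28 and Id3 at -0.31. The total called without that library was 16, since the filter on low counts was applied anew and let in a member not tested before.

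Smad7, the inhibitory Smad induced by TGF-beta itself, had 47.3, 46.9 and 43.9 CPM in normoxia, 30.6, 33.5 and 28.4 CPM at 2 h and 27.8, 21.8 and 25.6 CPM at 24 h in C1.1 cytoplasm. In C166 cytoplasm it had 52.6, 48.7 and 50.5 CPM in normoxia, 39.1, 39.3 and 42.1 CPM at 2 h and 34.3, 42.4 and 38.5 CPM at 24 h. No hypoxic library reached the normoxic ones of its line. The 24 h change was -0.88 ± 0.11 in C1.1 (edgeR adjusted p = 4.25e-06) and -0.40 ± 0.11 in C166 (edgeR adjusted p = 0.00938), and in the nucleus -1.30 ± 0.14 and -0.74 ± 0.13. The C166 cytoplasmic call was lost without C166 24 h replicate 1 or with only the libraries compared, and the differences of the responses, -0.48 in cytoplasm and -0.55 in the nucleus, did not pass. Smad2 fell in both lines and fractions, by between 0.33 and 0.44 on the log2 scale. Smad6 fell in the C1.1 nucleus by -0.48 ± 0.17, a call that leaving out any of C1.1 normoxia replicates 1 and 3 or 24 h replicates 2 and 3 ended. Skil rose in C1.1 cytoplasm by 0.27 ± 0.08, a call that 4 of 12 alternatives ended. Smad3, Smad1, Smad4 and Smad5 passed nowhere at 24 h.

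Id1 fell in both lines and fractions. It had 96.3, 85.8 and 75.5 CPM in C1.1 cytoplasm at 24 h, against 115, 137 and 112 CPM in normoxia. In C166 cytoplasm it had 87.4, 103 and 94.2 CPM at 24 h, against 150, 126 and 143 CPM in normoxia. The groups did not overlap, and the changes were -0.50 ± 0.11 in C1.1 and -0.56 ± 0.11 in C166, with -0.47 ± 0.11 and -0.57 ± 0.11 in the nucleus. Id2 fell in cytoplasm by -0.48 ± 0.09 in C1.1 and -0.39 ± 0.08 in C166. Id3 fell in the C166 nucleus, by -0.41 ± 0.13, and that call was lost without C166 nuclear 24 h replicate 1 or with only the libraries compared. Id2 was called there at -0.28 ± 0.11, and 8 of 12 alternatives ended that call, among them leaving out any of the 3 libraries at 24 h.

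**Figure D4:**
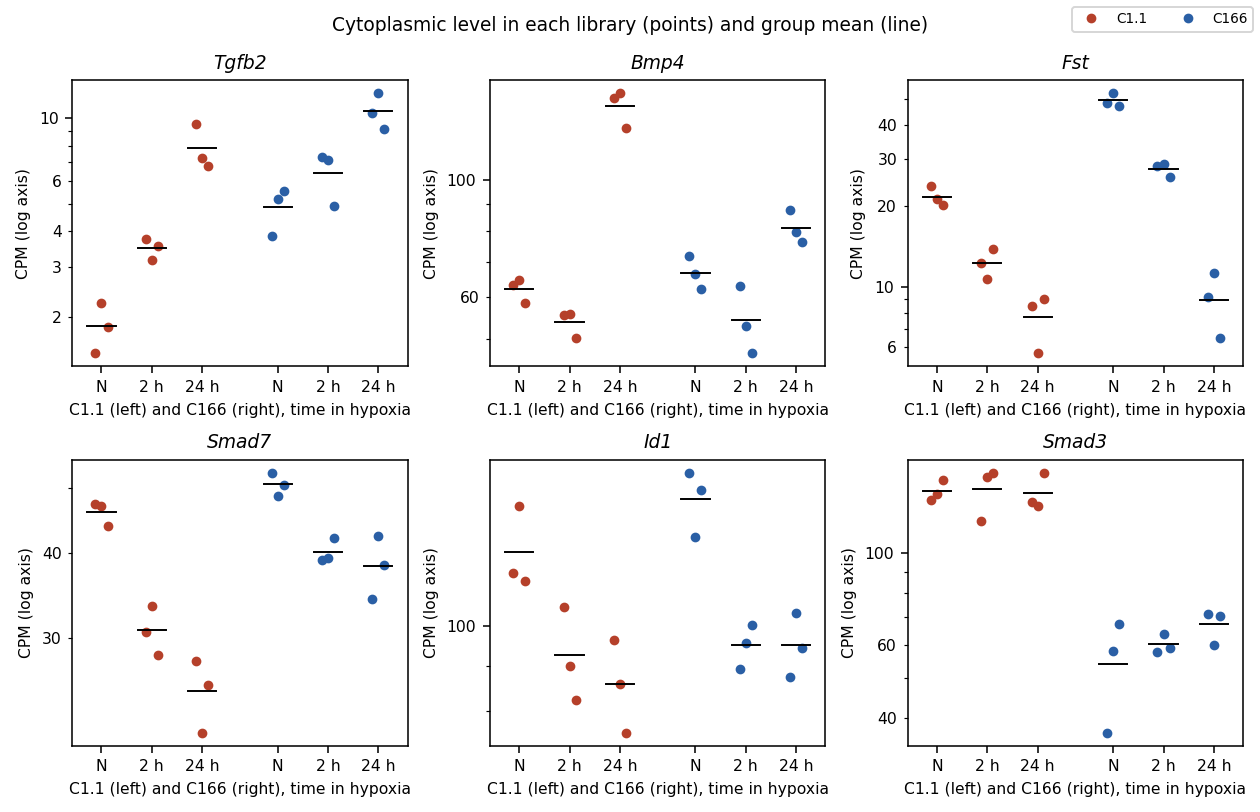
Cytoplasmic CPM on log axes are plotted for each library (points) with the group mean (line) in normoxia (N) and after 2 h and 24 h of hypoxia, C1.1 left of C166, for 6 members. Fst is lower at each later time in both lines, Smad3 is higher in all 9 libraries of C1.1 than in all 9 of C166, and the lowest Smad3 point, 36.8 CPM, is the C166 replicate that stood apart.

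Already at 2 h a few members had moved. In cytoplasm 2 of 34 passed in C1.1, Fst at -0.82 ± 0.18 and Smad7 at -0.58 ± 0.11 (1.95% of all genes passed, 1.09% higher and 0.86% lower), and 2 in C166, Fst at -0.84 ± 0.18 and Id1 at -0.56 ± 0.11 (1.34% of all genes, 0.913% higher and 0.427% lower). In the nucleus Fst passed in C1.1 at -0.58 ± 0.14 (3.29% of all genes, 2.08% higher and 1.21% lower), and in C166 Fst at -0.63 ± 0.13 and Id1 at -0.41 ± 0.11 (2.3% of all genes, 1.37% higher and 0.928% lower). Every call at 2 h could be lost by leaving out a replicate, and the counts fell to 0 without C166 2 h replicate 1 in C166 cytoplasm, without C1.1 2 h replicate 1 in C1.1 cytoplasm, without C166 normoxia replicate 2 in the C166 nucleus and without C1.1 2 h replicate 2 in the C1.1 nucleus. The direction of Fst was down in all of them.

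Known targets of the pathway moved in both directions at 24 h. Of 18 TGF-beta target genes, 5 rose and 8 fell in C1.1 cytoplasm, and 2 rose and 8 fell in C166 cytoplasm, beside the shares of all genes given above, 18% higher and 18.1% lower in C1.1 and 18.2% higher and 17.5% lower in C166. Tgfbi, which is named for its induction by TGF-beta, averaged 64.1 ± 8.04 CPM in C1.1 cytoplasm at 24 h and 7.56 ± 0.15 CPM in normoxia (SD, n = 3 each). Bhlhe40, also a hypoxia-inducible gene, rose by 2.60 ± 0.13 in C1.1 and 2.30 ± 0.13 in C166. Tagln and Pmepa1 went down, Tagln by -2.83 ± 0.12 in either line. Of the 10 BMP target genes tested in the nucleus, none rose in either line, 5 fell in C1.1 and 6 in C166, where Smad9 changed by -1.31 ± 0.16. The list shares Id1, Id2, Id3, Smad6 and Smad7 with the members, and 20.5% of all genes in C1.1 and 18.4% in C166 fell there. The 11 smooth muscle and mesenchymal genes summed to between 746 and 820 CPM in C1.1 cytoplasm and to between 1293 and 1478 CPM in C166 cytoplasm at 24 h, under their normoxic ranges in both lines. Of the 9 tested, 4 fell in C1.1 cytoplasm while Pdgfra, Pdgfrb and Col3a1 rose, and 5 fell in C166 cytoplasm while Col3a1 rose, with Acta2, Myl9 and Tagln falling in both lines. In the nucleus the sum was 1601 to 1944 CPM in C1.1 at 24 h, against 1833 to 1881 CPM in normoxia, and 2403 to 3666 CPM in C166, against 5364 to 6206 CPM, so that the C1.1 ranges overlapped.

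Markers of the fractions moved with 24 h of hypoxia as well. Malat1, an RNA retained in the nucleus, had 6084, 3490 and 3323 CPM in C1.1 cytoplasm at 24 h, against 2576, 2589 and 2529 CPM in normoxia. In C166 cytoplasm it had 8395, 9054 and 8819 CPM at 24 h, against 4994, 4270 and 3730 CPM in normoxia. Neither line's libraries overlapped. Neat1, the RNA of nuclear paraspeckles, rose in cytoplasm by 1.18 ± 0.12 in C1.1 and 1.49 ± 0.13 in C166. These were the 2 of 5 tested fraction markers that were called there, and in the nucleus Neat1 fell by 0.29 in C1.1 and 0.27 in C166. The part of the smooth muscle genes and of the fraction markers in the changes of the members at 24 h was not tested.

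The responses to 24 h of hypoxia differed between the lines for 1 of 34 members in cytoplasm (2.33% of all genes passed, 1.39% higher and 0.94% lower) and for 6 in the nucleus (4.75% of all genes, 2.89% higher and 1.87% lower), namely Fst, Bmp4, Ltbp1, Fstl1, Grem1 and Ltbp2 with the values given above. Of these, 5 are extracellular regulators, of 8 tested. In cytoplasm the log2 differences of these 6 had the same sign as in the nucleus, with 0.58 for Fstl1 and 1.38 for Ltbp2, and Bmp4 passed.

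The last comparison set nucleus against cytoplasm in normoxia, as shares of each library and not as amounts per cell. In C1.1 20 of 34 members passed, 7 higher and 13 lower in the nucleus (57.6% of all genes passed, 28.6% higher and 29% lower), and in C166 18, 8 higher and 10 lower (57.9% of all genes, 31.8% higher and 26.2% lower). The split depends on scaling. With relative log expression (RLE) factors it was 14 higher and 11 lower in C1.1 and 13 and 8 in C166, with upper-quartile factors 13 and 12 in C1.1 and 12 and 9 in C166, and with DESeq2 14 and 11 in C1.1 and 14 and 8 in C166. RLE factors moved the median of all genes by 0.21 in C1.1 and 0.12 in C166, so changes of that size carry no direction.

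**Figure D5:**
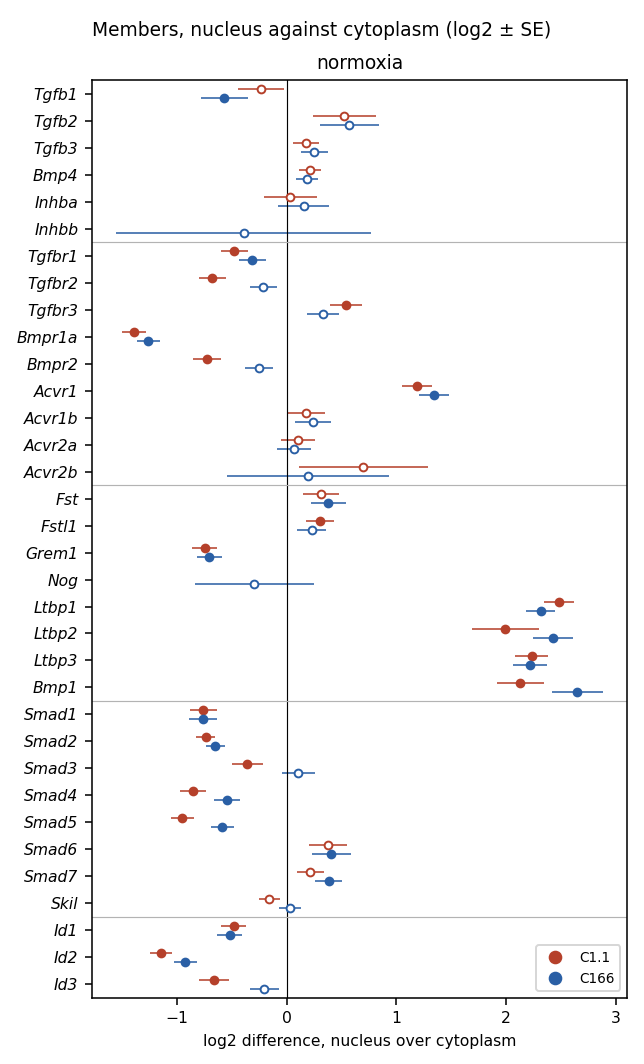
The log2 difference of nucleus over cytoplasm in normoxia (x axis) is plotted as estimate ± SE for the tested members (y axis, by role), C1.1 above C166 in each row, from 3 libraries per group. Filled points passed at adjusted p under 0.05, and Inhbb and Nog are left out for C1.1 for want of counts. The 3 LTBP genes and Bmp1 form a group at 1.99 to 2.65 in both lines.

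Among the tested members, the LTBP genes and Bmp1 stood out on the nuclear side in both lines. Genes outside the members lay on either side. On the scale of each fraction, Fn1 had 6948, 8189 and 7981 CPM in the normoxic C166 nucleus, against 1124, 967 and 879 CPM in cytoplasm. Tagln had 281, 381 and 336 CPM in that nucleus, against 492, 594 and 534 CPM in cytoplasm. On the scale common to both fractions, Ltbp1 was higher in the nucleus by 2.48 ± 0.13 in C1.1 and 2.32 ± 0.13 in C166, Ltbp3 by 2.23 ± 0.15 and 2.22 ± 0.15, and Bmp1 by 2.13 ± 0.22 and 2.65 ± 0.23. Ltbp2 gave 1.99 ± 0.31 in C1.1 and 2.43 ± 0.18 in C166. In none of these did the fractions overlap, and the C166 value of Bmp1 was 2.22 without normoxic cytoplasm replicate 1. Ltbp1 shares its locus with the row Gm6276 on the same strand. Acvr1, a BMP type I receptor, was also nuclear, at 1.18 ± 0.14 in C1.1 and 1.34 ± 0.14 in C166.

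On the cytoplasmic side were Bmpr1a, at -1.39 ± 0.11 in C1.1 and -1.26 ± 0.11 in C166, and Id2, at -1.15 ± 0.10 and -0.92 ± 0.10. Smad1, Smad2, Smad4 and Smad5 lay between -0.95 and -0.74 in C1.1 and between -0.76 and -0.55 in C166. Smad3 was called on that side in C1.1, with 113, 116 and 118 CPM in the nucleus and 142, 146 and 157 CPM in cytoplasm. In C166 its difference was 0.11, or -0.12 without C166 normoxic cytoplasm replicate 1, and it passed in neither case. Grem1 was on the cytoplasmic side too, at -0.75 ± 0.12 in C1.1 and -0.71 ± 0.12 in C166. The calls of Fst and Smad6 in C166 were lost without C166 normoxic cytoplasm replicate 1, and 22 members were called without that library. The call of Fst was also lost without cytoplasmic replicate 3 or nuclear replicate 2 or 3, and that of Smad6 without cytoplasmic replicate 2 or any nuclear replicate of C166 normoxia. For Bmp1, the LTBP genes and Bmpr1a, no alternative scaling or left-out library changed the call.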

How the data were processed

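RNA was rRNA-depleted and made into stranded total RNA libraries, sequenced with 51 cycles from paired ends. Per the submitters' processing notes, Bowtie2 2.2.2, TopHat2 2.0.11 and Cufflinks 2.2.1 were used on GRCm38, and featureCounts and edgeR are named without a role. The deposited values used here are raw counts per gene symbol, made by the authors. Whether counting used strand is not given in the sources used here. The table also holds 36 columns of normalized counts of the same libraries and 48 columns of the authors' DESeq2 comparisons, fold changes and p-values among them, none of which were used.

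In the table and its labels the line C1.1 is the miR-466c deletion line. Counts were filtered with filterByExpr and scaled with TMM in edgeR 4.0.16 (R 4.3.3), and a quasi-likelihood F-test (two-sided) was fitted to the 6 groups of the cytoplasm (14998 genes), the 6 of the nucleus (15735) or all 12 (16682, for nucleus against cytoplasm). P-values were adjusted by Benjamini-Hochberg over all genes tested and called at 0.05. CPM use the TMM library sizes of the fraction, and standard errors are the log2 difference over the root of F. The floor for a gene with 0 counts was 3 counts over a group. Fits were tested on simulated data. Between replicates of a group, counts differed by 3.24 to 55.0 times Poisson noise per gene, so none was a duplicate. Exon lengths and overlaps came from GENCODE annotation of GRCm38. Alternatives were DESeq2 1.42.0, upper-quartile and RLE factors, no filter, a replicate block, only the libraries compared, and each replicate left out. The members and lists were chosen with earlier results of these data known. Values per library are given for at most 3 called members of each role with the smallest p in a comparison, beside members needed to compare lines or times.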

Additional observations from a re-analysis of the deposited data

Results flagged for a closer look

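The 24 h response to hypoxia differed between C1.1 and C166, by an interaction term in edgeR, for Bmp4 in cytoplasm (log2 difference 0.87, C1.1 minus C166). In the nucleus it differed for Bmp4 (0.75), Fst (1.31), Fstl1 (0.66), Grem1 (0.53), Ltbp1 (-0.53) and Ltbp2 (1.25). These calls kept their side of the threshold in each of the 18 alternatives run for them. For Ltbp2 the nuclear values of C1.1 did not exceed 5.05 CPM.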

How the results depend on the processing

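No called member changed sign under the alternatives run, and the total of called members stayed within 1.5 times apart from the comparisons given here. The split into higher and lower did move with the scaling. Between fractions it was 7 higher and 13 lower in C1.1 with TMM but 14 and 11 with RLE factors, and 8 and 10 in C166 with TMM but 13 and 8 with RLE. In the C166 nucleus at 24 h it was 7 and 8 with TMM but 11 and 7 with upper-quartile factors. Between the lines in the normoxic nucleus it was 9 and 15 with TMM but 10 and 12 with upper-quartile factors. With DESeq2 4 members were called in C166 cytoplasm at 2 h, 6 in C1.1 cytoplasm at 2 h, 5 in the C1.1 nucleus at 2 h and 4 for the difference of the cytoplasmic responses. Without the filter the numbers were 4 in C1.1 cytoplasm at 2 h, 2 in the C1.1 nucleus at 2 h and 4 for the difference of the cytoplasmic responses, which was 2 with upper-quartile factors. Fitting only the libraries compared gave 1 in C166 cytoplasm, 7 in C1.1 cytoplasm, 5 in the C166 nucleus and 3 in the C1.1 nucleus at 2 h, and 7 in C166 cytoplasm at 24 h. The cause was not tested. Leaving out a replicate gave 0 to 2 calls in each comparison at 2 h, 12 to 16 in C166 cytoplasm, 12 to 13 in C1.1 cytoplasm, 12 to 17 in the C166 nucleus and 17 to 19 in the C1.1 nucleus at 24 h, 15 to 18 and 21 to 23 between the lines in cytoplasm and nucleus, 1 to 3 and 6 to 9 for the differences of the responses, and 14 to 22 and 18 to 20 between fractions in C166 and C1.1.

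Replicate numbers do not pair the samples: correlations of same-numbered deviations between groups ran from -0.05 to 0.09 over 12 pairs of groups. With a replicate block 2 members were called for the difference of the cytoplasmic responses, and no other count moved by over 1.5 times. Low counts limit what can be said of Nog, Inhbb, Acvr2b, Bmp6 and Gdf15.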
